A study of Mus musculus with 7 samples.

Results

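Major histocompatibility complex class I molecules sit on the surface of nearly all nucleated cells and show peptides from inside the cell to CD8+ T cells. Each is built from a heavy chain (in mice H2-K1 or H2-D1, among others) and the light chain B2m. The peptides are cut by the proteasome, whose catalytic subunits can be exchanged for the interferon-induced subunits Psmb8 and Psmb9, and are carried into the endoplasmic reticulum by a transporter of which Tap1 is one chain. Cd74, the invariant chain, escorts class II molecules, which are normally made by professional antigen-presenting cells. C4b, a complement component, and Serpina3n, a secreted serine protease inhibitor, are known as genes that oligodendrocytes switch on in ageing, demyelination and neurodegeneration. Cells of the healthy oligodendrocyte lineage are generally considered to make little of these products, and their progenitors can raise class I genes in response to interferon.

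These 9 genes (B2m, H2-K1, H2-D1, C4b, Serpina3n, Tap1, Psmb8, Psmb9 and Cd74) were taken by symbol from the 27998 genes of the deposited count table, and all 9 had a row. Their levels were described across the authors' 11 clusters and across 3 single-cell libraries of oligodendrocyte lineage cells (OLCs) that had been sorted from adult mouse cortex at P90. Control dOLCs were tdTom+ cells of dorsal origin from Emx1-Cre:Sox10-GFP-TdTom mice, and control vOLCs were GFP+ cells of ventral origin from mice of that same genotype. Ectopic vOLCs were GFP+ cells from Emx1-Cre:Sox10-GFP-tdTom mice that also carried Sox10-GFP-DTA, in which diphtheria toxin fragment A, released by Cre in the lineage of the dorsal forebrain, ablates dorsally derived OLCs. All mice carried Emx1-Cre and the dual reporter, and were of both sexes and of a mixed C57BL/6 and B6CBA background. Cells came from 4 control and 2 ablated mice that were pooled and cannot be told apart, so 1 library stands for each condition and conditions could not be tested against each other. Class I genes vary between mouse strains, and the H2 haplotype of the mice behind each library was not analysed here.

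The authors kept 5804 control dOLCs, 925 control vOLCs and 2562 ectopic vOLCs. These held 23078181, 4846391 and 14293675 unique molecular identifiers (UMIs, each standing for 1 captured transcript). The depth differed, with a median of 3489.5, 5022 and 5318.5 UMIs per cell. Between 6 and 24 barcode sequences were shared by the kept cells of any pair of libraries. Levels below are scaled counts (CPM), the UMIs of a gene divided by all UMIs of that cell type in that library and multiplied by 1e+06. Intervals are 95% exact intervals and cover counting error only. MOL5/6, the main class of mature oligodendrocytes, joined the authors' subclusters MOL5/6a to MOL5/6d and held 3777, 561 and 1842 cells of control dOLCs, control vOLCs and ectopic vOLCs. Oligodendrocyte progenitor cells (OPCs), cycling cells left out, numbered 853, 121 and 330. The OPC markers Pdgfra, Cspg4, Ptprz1 and Vcan summed to between 5728 and 7577 CPM in OPCs and to between 27.9 and 69.4 CPM in MOL5/6. The mature oligodendrocyte markers summed to 7033, 2918 and 2926 CPM in OPCs, in the same order of libraries. In MOL5/6 they summed to 41472, 47120 and 46776 CPM. The clusters were made from these same counts, so the marker sums describe the labels and do not check them. In a bulk sum of this kind, fewer cells making a transcript and less of it per cell cannot be told apart.

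The stretches of DNA just upstream of a transcript start of the class I genes and of the transporter gene are shown here because the regulation of these genes through short shared motifs is well known. They are the 250 bases before the start given in a table of promoters, credited to RefSeq, build GRCm38.p6, 5′ to 3′ on the strand of the gene. Capitals mark matches, on either strand, to the core of the interferon-stimulated response element (GAAA and GAAA with any 2 bases between), the NF-kB site of enhancer A (GGGGA and TCCCC with any 1 base between), the X2 box (TGACGC), the Y box (CCAAT, or ATTGG on the other strand) and the gamma-activated sequence (TTCNNNGAA). The windows are chr2:122147437-122147686 on the plus strand for B2m, chr17:34000348-34000597 on the minus strand for H2-K1, chr17:35262844-35263093 on the plus strand for H2-D1 and chr17:34187306-34187555 on the plus strand for Tap1. That table gives H2-K1 2 starts, of which the first is used here, and the span of the H2-K1 gene given further on, from RefSeq's table of genes, reaches further upstream and holds this window.
B2m: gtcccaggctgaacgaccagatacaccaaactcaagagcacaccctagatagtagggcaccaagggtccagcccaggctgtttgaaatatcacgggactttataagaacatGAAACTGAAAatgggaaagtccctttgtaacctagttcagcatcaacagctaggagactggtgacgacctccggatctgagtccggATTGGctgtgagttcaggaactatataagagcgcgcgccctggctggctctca
H2-K1: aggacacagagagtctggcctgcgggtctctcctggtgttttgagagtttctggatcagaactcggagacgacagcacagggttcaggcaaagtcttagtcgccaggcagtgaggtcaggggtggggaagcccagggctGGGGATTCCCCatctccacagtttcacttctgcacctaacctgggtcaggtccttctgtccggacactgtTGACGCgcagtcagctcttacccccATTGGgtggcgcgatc
H2-D1: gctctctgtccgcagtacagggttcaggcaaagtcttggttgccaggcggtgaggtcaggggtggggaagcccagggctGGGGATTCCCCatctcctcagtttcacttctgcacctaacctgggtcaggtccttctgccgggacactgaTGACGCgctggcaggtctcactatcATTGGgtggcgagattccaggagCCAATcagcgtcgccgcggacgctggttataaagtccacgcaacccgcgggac
Tap1: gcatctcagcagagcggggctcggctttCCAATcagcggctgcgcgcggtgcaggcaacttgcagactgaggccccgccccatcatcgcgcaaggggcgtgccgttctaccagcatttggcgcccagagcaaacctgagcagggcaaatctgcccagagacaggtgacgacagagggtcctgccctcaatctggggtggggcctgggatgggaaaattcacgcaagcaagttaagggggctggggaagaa
In these exact letters the interferon element was matched in the B2m window alone among the 7 members with a promoter in the table. It stood at bases -139 to -130, and 3.04% of all 27025 promoters held it. Looser forms of the element were not searched, so a window without a match may still hold one. The NF-kB letters GGGGATTCCCC stood at bases -111 to -101 of H2-K1 and -171 to -161 of H2-D1, and only 11 promoters of the table (0.0407%) held that motif. Both heavy chains also held the X2 box, which 6.14% of promoters did, and B2m, H2-K1, H2-D1, Tap1 and Psmb9 held a Y box, which 34.5% did. The upstream windows of Tap1 and Psmb9, which lie back to back with starts 226 bases apart, overlapped by 225 bases, so the Tap1 sequence above is nearly that of Psmb9 read from the other strand. Psmb8 held the gamma-activated letters TTCCCAGAA at bases -97 to -89, a motif of 7.18% of promoters, and Serpina3n held none of these motifs. C4b and Cd74 were not matched in that table. Whether any of these matches is used in these cells was not measured.

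B2m, the light chain of class I, was detected in both cell classes of all 3 libraries. In MOL5/6 it stood at 42.9 CPM in control dOLCs (636 UMIs), 63.0 CPM in control vOLCs (184 UMIs) and 53.3 CPM in ectopic vOLCs (564 UMIs). In OPCs its level was 207 CPM in control dOLCs, 281 CPM in control vOLCs and 304 CPM in ectopic vOLCs. OPCs were therefore higher than MOL5/6 in every library, by 4.83-, 4.46- and 5.69-fold, and both libraries of ventral cells were above control dOLCs in both classes.

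H2-K1, a heavy chain, stood at 25.9 CPM in MOL5/6 of control dOLCs (385 UMIs), 36.6 CPM in control vOLCs (107 UMIs) and 49.5 CPM in ectopic vOLCs (523 UMIs). In OPCs H2-K1 stood at 62.5, 70.9 and 136 CPM in the same order (164, 28 and 163 UMIs). Ectopic vOLCs were the highest library in both classes, while the counting intervals of the control libraries overlapped in OPCs. OPCs exceeded MOL5/6 by 2.41-, 1.94- and 2.74-fold.

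H2-D1, another classical heavy chain, stood at 28.8 CPM in MOL5/6 of control dOLCs (428 UMIs), 38.4 CPM in control vOLCs (112 UMIs) and 55.7 CPM in ectopic vOLCs (589 UMIs). In OPCs H2-D1 stood at 172, 170 and 282 CPM (452, 67 and 339 UMIs), so the control libraries lay together and ectopic vOLCs above them. OPCs exceeded MOL5/6 by 5.97-, 4.43- and 5.06-fold.

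Of the 9 genes, 5 had enough UMIs to compare OPCs with MOL5/6 in all 3 libraries, and 4 of them (B2m, H2-K1, H2-D1 and Serpina3n) were past 1.5-fold higher in OPCs in each library. Of all genes compared in that way, 37.3% were past 1.5-fold higher in OPCs in each library and 9.75% lower, so a higher level in OPCs was common. These classes are clusters of the same cells, and the comparison is a description. Free RNA from lysed cells can place transcripts in droplets that never made them. In MOL5/6 the OPC markers reached 1.16%, 0.511% and 0.487% of their level in OPCs in control dOLCs, control vOLCs and ectopic vOLCs. The summed level of B2m, H2-K1 and H2-D1 in MOL5/6 was 22.1%, 26.4% and 22.0% of that in OPCs. In the other direction, the mature oligodendrocyte markers in OPCs reached 16.96%, 6.19% and 6.26% of their level in MOL5/6. The part of free RNA in the class I levels of MOL5/6 was not tested.

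**Figure D1:**
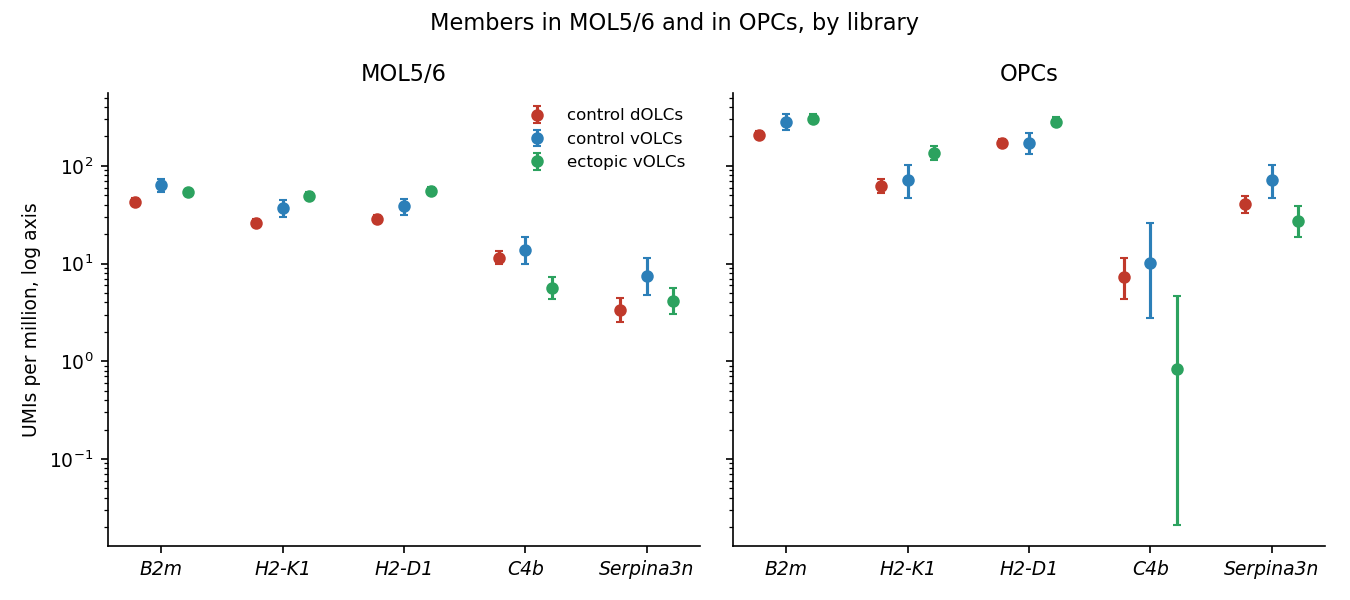
Level of B2m, H2-K1, H2-D1, C4b and Serpina3n in CPM (y axis, log scale) in OPCs and MOL5/6 of control dOLCs, control vOLCs and ectopic vOLCs, each point being 1 library and each bar its 95% exact Poisson interval, which covers counting error only. H2-K1 is highest in ectopic vOLCs in both classes, at 136 CPM in OPCs and 49.5 CPM in MOL5/6, and C4b is lowest there, at 0.83 and 5.67 CPM.

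Among clusters with 20 or more cells in a library, each of the 3 class I genes stood highest in OPCs in every library. Sums over fewer cells varied more, such as H2-K1 in MOL2b of control vOLCs (76.6 CPM, 4 UMIs in 6 cells) and in cycling OPCs of ectopic vOLCs (21.2 CPM, 1 UMI in 11 cells). For H2-D1 the OPCs of control dOLCs (172 CPM) and the few cycling OPCs (203 CPM, 17 cells) stood above every other cluster, which ran from 17.8 CPM in MOL2a to 53.1 CPM in MOL5/6a. In ectopic vOLCs H2-D1 ran from 16.2 CPM in MOL2b to 69.7 CPM in MOL5/6a among the oligodendrocyte clusters, and stood at 33.5 CPM in COP/NFOL/MFOLa, the cells between progenitor and oligodendrocyte. B2m in control dOLCs had its lowest level in MOL2a (30.2 CPM) and its highest oligodendrocyte level in MOL5/6a (71.1 CPM). Most clusters that neighboured each other in these orders had overlapping counting intervals. H2-D1 in MOL5/6a of control dOLCs (interval 41.5 to 67.0 CPM) lay above MOL2a (12.5 to 24.7 CPM), and B2m did so there too (57.5 to 86.9 CPM against 23.1 to 38.8 CPM). H2-K1 in COP/NFOL/MFOLa of ectopic vOLCs, at 127 CPM, rested on 1 cell that held 13 of the 19 UMIs.

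**Figure D2:**
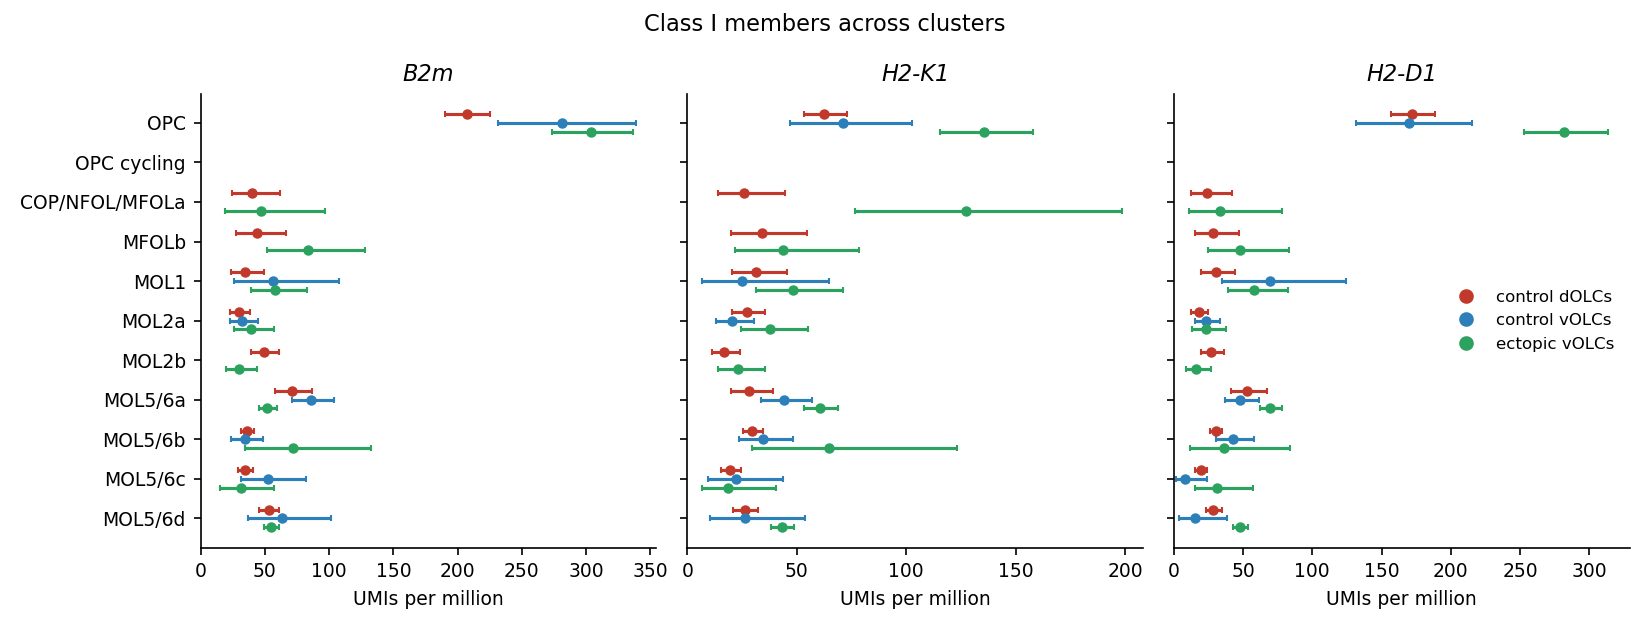
Level of B2m, H2-K1 and H2-D1 in CPM (x axis, a panel per gene) in each of the authors' clusters (y axis, from OPCs to mature oligodendrocytes) and library, with 95% exact Poisson intervals, leaving out sums over under 20 cells. OPCs stand above the oligodendrocyte clusters in the 3 libraries. With the genes summed they are at 442, 522 and 721 CPM against 97.6, 138 and 159 CPM in MOL5/6 as a whole.

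The comparison of ectopic vOLCs with control dOLCs asks how ventral cells that fill dorsal territory differ from the cells they replace. In MOL5/6 H2-K1 was 1.91-fold higher in ectopic vOLCs (log2 ratio 0.93, interval 0.74 to 1.12) and H2-D1 was 1.93-fold higher (log2 ratio 0.95, interval 0.77 to 1.13). B2m was higher by a log2 ratio of 0.32 (interval 0.15 to 0.48). In OPCs H2-K1 was 2.17-fold higher (log2 ratio 1.12, interval 0.80 to 1.44), H2-D1 was 1.64-fold higher (log2 ratio 0.71, interval 0.50 to 0.92) and B2m was higher by a log2 ratio of 0.55 (interval 0.36 to 0.75). H2-D1 was listed by the study for ectopic against dorsal OPCs, and H2-K1 and B2m stood in a pathway term it gave there, so the OPC values of these genes are not independent evidence.

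Of the 9 genes, 3 passed the filter on low counts in MOL5/6 (at least 50 UMIs in both libraries together and a UMI in 10% of the cells of 1 of them), and 2 of those 3, H2-K1 and H2-D1, were past 1.5-fold higher in ectopic vOLCs. Of the 5218 genes past the filter there, 1.13% were past 1.5-fold higher and 11.5% lower, with a median log2 ratio of -0.03. With edgeR's TMM scaling the same 5218 genes split into 3.72% higher and 6.59% lower and their median was 0.14, and H2-K1 and H2-D1 were again past 1.5-fold. In OPCs 4 of the 9 genes passed the filter and 2 of the 4, again the heavy chains, were past 1.5-fold higher, against 5.34% of all 6110 genes higher and 5.79% lower, with a median of 0.08. The other 6 genes in MOL5/6 and 5 in OPCs did not pass the filter and are given by their counts and intervals.

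Control vOLCs share the ventral origin of ectopic vOLCs and came from the cortex of mice without the ablation, and the heavy chains of ectopic vOLCs were also higher than theirs. In MOL5/6 the log2 ratio was 0.43 for H2-K1 (interval 0.13 to 0.75) and 0.54 for H2-D1 (interval 0.24 to 0.84), and for B2m it was -0.24 (interval -0.48 to 0.01). None of the 3 genes past the filter there was past 1.5-fold, where 1.46% of all genes were higher and 12.4% lower. TMM scaling moved the split to 4.33% higher and 7.55% lower, and under it H2-D1 was past 1.5-fold. With median of ratios size factors both heavy chains were, at 0.59 for H2-K1 and 0.70 for H2-D1, and with cells thinned to 1000 UMIs H2-K1 was, at 0.77. Over the alternatives H2-K1 ran from 0.35 to 0.77 and H2-D1 from 0.16 to 0.75, so that H2-D1 also fell below its interval. In OPCs the log2 ratio was 0.93 for H2-K1 (interval 0.35 to 1.57), 0.73 for H2-D1 (interval 0.35 to 1.13) and 0.11 for B2m (interval -0.20 to 0.43). Of the 4 genes past the filter both heavy chains were past 1.5-fold higher and Serpina3n lower, where 18% of all genes were higher and 9.77% lower. With TMM scaling 20.9% were higher and 7.48% lower. The control vOLC library held only 121 OPCs, and its counts set the width of these intervals.

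Control vOLCs were above control dOLCs in MOL5/6 for B2m (log2 ratio 0.56, interval 0.31 to 0.80), H2-K1 (0.50, interval 0.18 to 0.81) and H2-D1 (0.41, interval 0.10 to 0.71). As the mean within the 4 subclusters of MOL5/6 these ratios were 0.16 for B2m, 0.38 for H2-K1 and -0.02 for H2-D1, so that of H2-D1 turned. None of the 3 genes past the filter there was past 1.5-fold, where 2.56% of all genes were higher and 0.731% lower. With cells thinned to 1000 UMIs H2-D1 was past it (log2 ratio 0.88), and without cells holding a microglia or macrophage marker B2m was (0.68). In OPCs the log2 ratio was 0.44 for B2m (interval 0.13 to 0.74), 0.18 for H2-K1 (interval -0.45 to 0.77) and -0.02 for H2-D1 (interval -0.41 to 0.35). Of the 4 genes past the filter Serpina3n alone was past 1.5-fold, where 10.8% of all genes were higher and 12.1% lower. With TMM scaling 8.14% were higher and 15% lower. The 3 comparisons share libraries, so their values are given side by side.

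**Figure D3:**
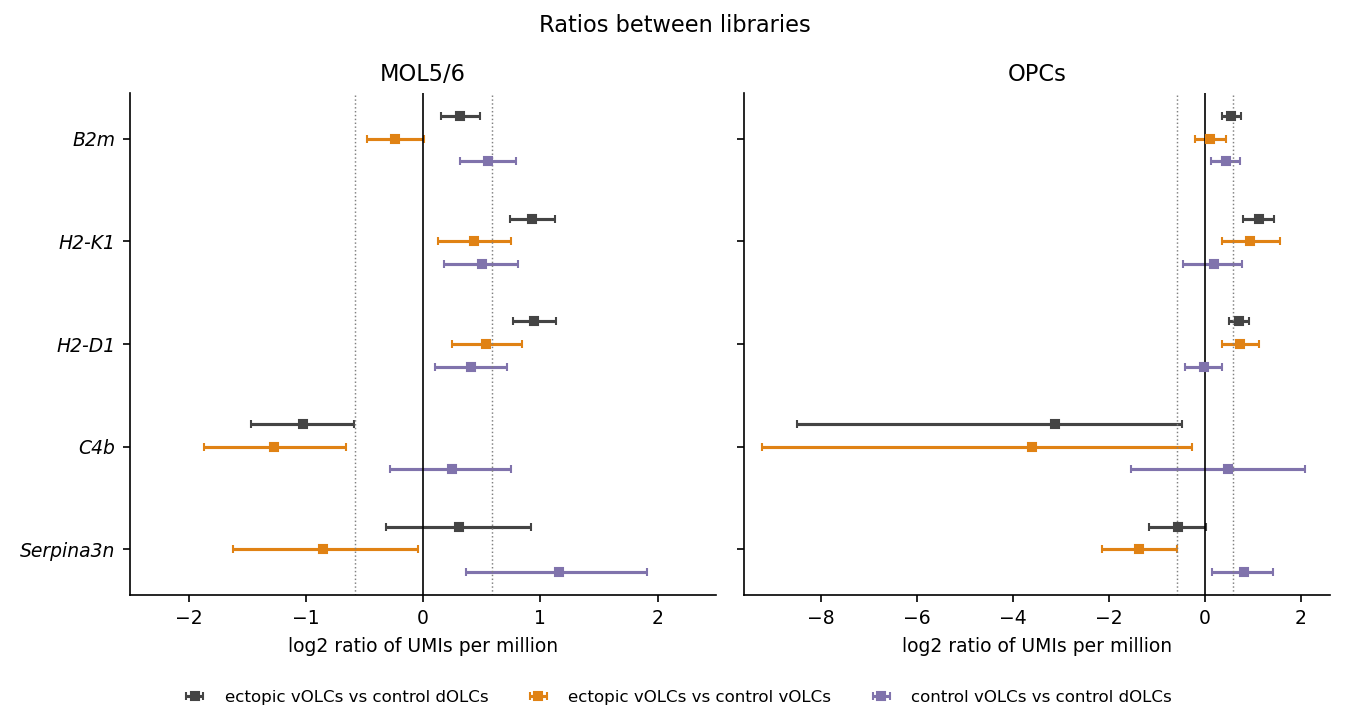
Log2 ratio of CPM (x axis) of B2m, H2-K1, H2-D1, C4b and Serpina3n for ectopic vOLCs against control dOLCs, ectopic vOLCs against control vOLCs and control vOLCs against control dOLCs, in MOL5/6 and OPCs (panels with different x ranges), with 95% counting intervals and dotted lines at 1.5-fold. H2-K1 and H2-D1 lie right of the 1.5-fold line for ectopic vOLCs against control dOLCs in both panels, and C4b lies left of 0 for ectopic vOLCs against either control library.

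The 4 subclusters of MOL5/6 were filled unequally. MOL5/6a and MOL5/6d held 900 and 837 of the 1842 ectopic cells, while MOL5/6b and MOL5/6c held 1947 and 928 of the 3777 control dOLC cells. Within MOL5/6a H2-K1 was 28.4 CPM in control dOLCs, 44.3 CPM in control vOLCs and 60.7 CPM in ectopic vOLCs. Within MOL5/6d H2-K1 was 26.2, 26.2 and 43.1 CPM and H2-D1 was 28.5, 14.97 and 48.0 CPM, of which the control vOLC value rests on 4 UMIs. The log2 ratio of H2-K1 and H2-D1 summed, ectopic vOLCs against control dOLCs, was 0.94 over MOL5/6 and 0.68 (interval 0.38 to 0.99), 0.75 (interval -0.13 to 1.52), 0.35 (interval -0.49 to 1.10) and 0.74 (interval 0.50 to 0.98) in MOL5/6a to MOL5/6d. The sum of the heavy chains was thus higher in ectopic vOLCs within each of the 4, with intervals that included 0 in MOL5/6b and MOL5/6c, which held only 42 and 63 ectopic cells.

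B2m did not keep 1 direction within subclusters. In MOL5/6a B2m was 71.1 CPM in control dOLCs, 86.3 CPM in control vOLCs and 51.9 CPM in ectopic vOLCs, a log2 ratio for ectopic vOLCs over control dOLCs of -0.46 (interval -0.81 to -0.09). In MOL5/6d B2m was 52.9, 63.6 and 55.1 CPM, and the mean of the log2 ratios within the 4 subclusters, weighted by the smaller cell number, was -0.09. In MOL2b, mature oligodendrocytes outside MOL5/6, B2m was 49.1 CPM in control dOLCs and 30.1 CPM in ectopic vOLCs. The heavy chains were not higher beyond counting error there, with log2 ratios for ectopic vOLCs over control dOLCs of 0.46 for H2-K1 (interval -0.44 to 1.34) and -0.73 for H2-D1 (interval -1.71 to 0.16). With all cells counted, B2m was thus lower in ectopic vOLCs in MOL5/6a and MOL2b, where 95% intervals lay below 0. Few cells weighed on the control dOLC levels there. In MOL2b 1 cell held 17 of the 82 UMIs, and in MOL5/6a cells with 13 and 6 UMIs were among the 95. Neither result is given without those cells. In the other subclusters of MOL5/6 B2m was not resolved, with log2 ratios of 0.99 in MOL5/6b (interval -0.09 to 1.90), -0.15 in MOL5/6c (interval -1.24 to 0.77) and 0.06 in MOL5/6d (interval -0.21 to 0.33). Whether the light chain and the heavy chains differ in their response was not tested.

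H2-K1, Tap1, Psmb9, Psmb8, C4b and H2-D1 lie on chromosome 17 in the H2 region, the mouse major histocompatibility complex, and the other 3 genes lie elsewhere. In GRCm38.p6 H2-K1 is at chr17:33996012-34000619 on the minus strand and H2-D1 at chr17:35263094-35267497 on the plus strand. Psmb9, Tap1 and Psmb8 lie side by side between them at chr17:34182030-34187330, chr17:34187556-34197225 and chr17:34198195-34201454, and C4b is at chr17:34728139-34743902. B2m is at chr2:122147687-122153082 and Serpina3n at chr12:104406646-104414334, both on the plus strand. From H2-K1 to H2-D1, both included, the table held 84 genes. In MOL5/6, 23 of them passed the filter for ectopic vOLCs against control dOLCs, 2 were past 1.5-fold higher, H2-K1 and H2-D1 themselves, and 3 were lower (Skiv2l, Bag6 and Prrc2a), where 1.13% of all genes were higher and 11.5% lower. Their median log2 ratio was -0.07, and with TMM scaling it was 0.10, with 3 genes higher and none lower. In OPCs 29 passed, 5 were higher (H2-K1, H2-D1, Rnf5, Stk19 and Atp6v1g2) and none lower, with a median of 0.15, where 5.34% of all genes were higher and 5.79% lower. In the 1 Mb on either side, 20 of 82 genes passed in MOL5/6, with none higher and Ppp1r10 lower, and 25 passed in OPCs, with 3 higher (Rps18, Ppp1r18 and H2-T22) and 2 lower (Vps52 and Ddr1). Genes of the region other than the 9 are named here because of these values.

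**Figure D4:**
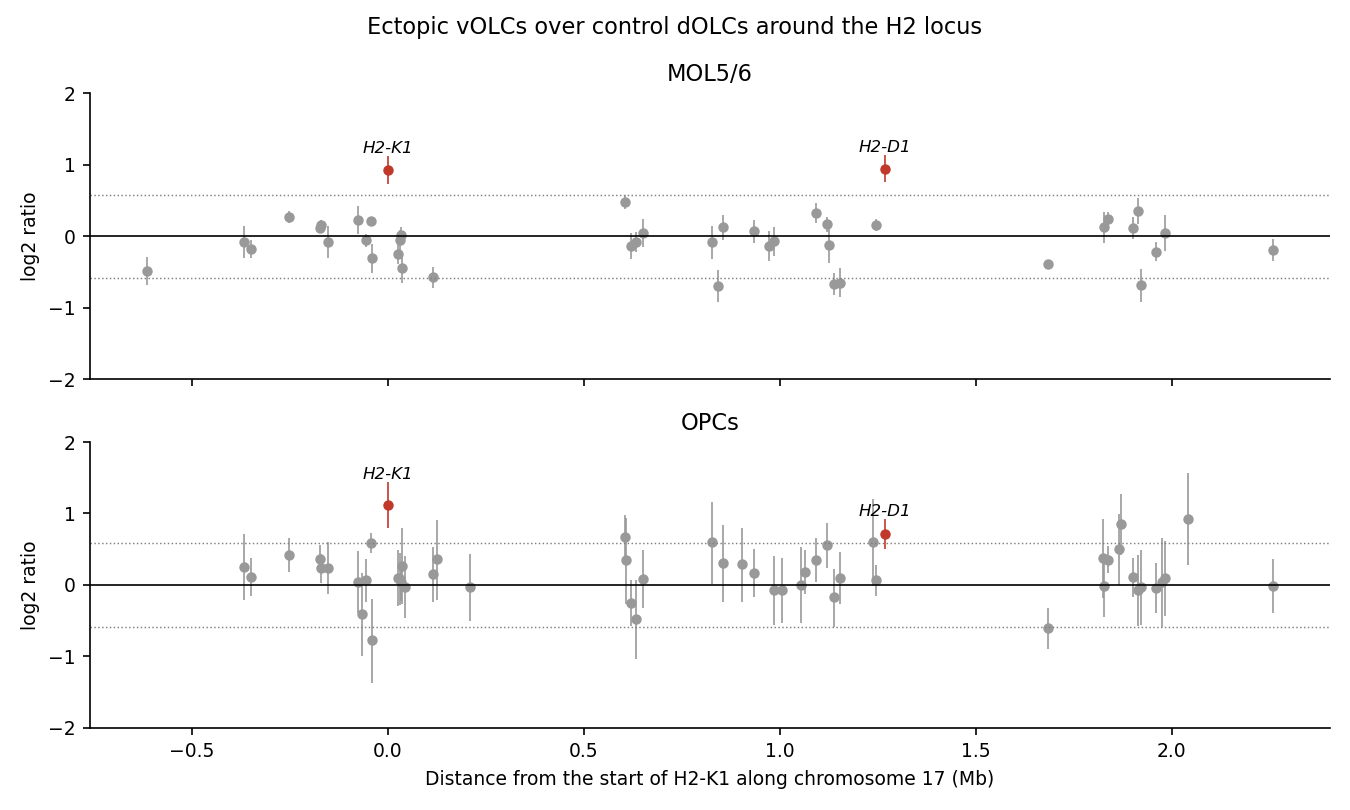
Log2 ratio of CPM, ectopic vOLCs against control dOLCs (y axis), of the genes past the filter from H2-K1 to H2-D1 and 1 Mb to either side, by distance from the start of H2-K1 in Mb (x axis), in MOL5/6 and OPCs, with 95% counting intervals. The heavy chains at both ends stand above their neighbours in MOL5/6, where the median of the genes from H2-K1 to H2-D1 is -0.07.

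The heavy chains are close copies of each other, with transcripts 90.8% identical over their aligned length, but counting here used the 3′ end. Over the last 500 bases they were 72.4% identical, and of 451 windows of 50 bases, 0.443% of those of H2-K1 recurred in another gene, H2-D1. Of the windows of H2-D1 9.53% recurred in other genes, and none of B2m, Serpina3n, Tap1, Psmb8, Psmb9 or Cd74. C4b shared 38.1% of its windows with C4a, a near-identical neighbour without a row in the count table, so reads of C4b and C4a may not have been told apart and the counts of C4b are uncertain.

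Tap1, the transporter chain, was sparse in mature cells and better detected in OPCs. In OPCs it stood at 14.5 CPM in control dOLCs (38 UMIs), 15.2 CPM in control vOLCs (6 UMIs) and 6.65 CPM in ectopic vOLCs (8 UMIs). In MOL5/6 the 3 libraries held 8, 2 and 0 UMIs. Set at the limit of 3 UMIs that a count of 0 allows, ectopic vOLCs were 1.90-fold lower than control dOLCs. That value leaves out the counting error of the 8 UMIs. The intervals of the levels overlapped, at 0.233 to 1.06 CPM in control dOLCs and 0 to 0.349 CPM in ectopic vOLCs. The log2 ratio for ectopic vOLCs over control dOLCs in OPCs was -1.12 (interval -2.43 to 0.00). Tap1 was thus not higher in ectopic vOLCs in either class, where both heavy chains were.

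Psmb8 and Psmb9, the inducible catalytic subunits, were near the limit of detection. Psmb8 had 6, 3 and 12 UMIs in MOL5/6 and 13, 1 and 9 UMIs in OPCs of control dOLCs, control vOLCs and ectopic vOLCs. The log2 ratio for ectopic vOLCs over control dOLCs was 1.49 in MOL5/6 (interval -0.04 to 3.19) and 0.60 in OPCs (interval -0.81 to 1.93). Psmb9 had 1, 1 and 0 UMIs in MOL5/6 and 4, 0 and 2 UMIs in OPCs. No difference between libraries could be detected for either at this depth.

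The partners of these genes were read from fixed lists. Of 8 genes of peptide loading, 5 passed the filter in MOL5/6 and 6 in OPCs, and none was past 1.5-fold in ectopic vOLCs against control dOLCs, where 1.13% of all genes were higher and 11.5% lower in MOL5/6 and 5.34% and 5.79% in OPCs, so that a count of 0 in lists this short says little. The median log2 ratios of peptide loading were -0.08 and -0.16 against -0.03 and 0.08 over all genes, and the first turned to 0.09 with TMM scaling, which set all genes at 0.14. Canx, a chaperone of folding heavy chains, had log2 ratios of -0.40 in MOL5/6 and -0.32 in OPCs, and Hspa5, the main chaperone of the endoplasmic reticulum, of -0.32 and -0.44. Tapbp, which holds class I at the transporter, had log2 ratios of 0.23 and 0.04. All 14 subunits of the constitutive proteasome core passed in both classes and none was past 1.5-fold, with medians of 0.24 and 0.24, while with median of ratios size factors 1 was in MOL5/6. Psmb7, the constitutive trypsin-like subunit, had log2 ratios of 0.41 and 0.39. Among 4 immunoproteasome partners, 3 passed in MOL5/6 with none past 1.5-fold, and 4 passed in OPCs, where Psme1, a subunit of the proteasome activator that interferon induces, was past it at 41.5 CPM in control dOLCs and 62.4 CPM in ectopic vOLCs (log2 ratio 0.59, interval 0.14 to 1.02), a value that TMM scaling took below 1.5-fold.

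Of 9 other class I heavy chains with a row, most are nonclassical molecules of the T and M regions, and none passed the filter in MOL5/6. In OPCs their sum was 35.8 CPM in control dOLCs, 78.5 CPM in control vOLCs and 69.0 CPM in ectopic vOLCs, so both ventral libraries lay above the dorsal one. H2-T22, a ligand of gamma-delta T cells, was the only one to pass, at 17.5, 30.4 and 33.3 CPM, and was past 1.5-fold (log2 ratio for ectopic vOLCs over control dOLCs 0.93, interval 0.28 to 1.57), where 5.34% of all genes were higher and 5.79% lower. In MOL5/6 the summed level of these other heavy chains was 7.35 CPM in control dOLCs, 14.0 CPM in control vOLCs and 6.34 CPM in ectopic vOLCs.

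Interferons are known inducers of class I genes. Of 32 interferon response genes 3 passed the filter in each class and none was past 1.5-fold in ectopic vOLCs against control dOLCs, where 1.13% of all genes were higher in MOL5/6 and 5.34% in OPCs. At these shares a count of 0 among 3 genes says little about the list. Ifi27, a mitochondrial protein that type I interferon induces, had a log2 ratio of 0.32 (interval 0.24 to 0.40) in MOL5/6 and 0.39 (interval 0.25 to 0.52) in OPCs. The sum of the list had log2 ratios of 0.23 (interval 0.17 to 0.29) and 0.37 (interval 0.26 to 0.48). In MOL5/6 the sum was 389 CPM in ectopic vOLCs and 332 CPM in control dOLCs. Without Ifi27l2a, a gene of the list, and the cells with 3 or more UMIs of it, these levels were 361 and 328 CPM. Among 9 interferon receptors and kinases 3 passed in MOL5/6 and 4 in OPCs, none past 1.5-fold. Ifnar2, a chain of the type I receptor, had log2 ratios of 0.31 and -0.06, and Jak1, a kinase of these receptors, of -0.36 and 0.39.

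Transcripts of class I were concentrated in few cells only to a small degree. Cells with 10 or more UMIs of B2m, H2-K1 and H2-D1 together, a limit chosen after the values were seen, numbered 5 control dOLCs, 2 control vOLCs and 7 ectopic vOLCs, or 14 of 9291 cells (0.151%, exact interval 0.0824% to 0.253%). They held 3.01%, 8.18% and 4.03% of the class I UMIs of their libraries. The highest, a control vOLC of MOL5/6a, had 27 UMIs of B2m, 11 of H2-K1 and 14 of H2-D1, and also 9 of H2-T23, 3 of Psmb8 and 1 of Psmb9. A control dOLC of MOL2b had 17, 8 and 12 UMIs of B2m, H2-K1 and H2-D1, and a control dOLC of MOL5/6a had 13, 1 and 10 together with 8 of C4b. Of the microglia list 13 of the 14 cells held no UMI, and none held one of the endothelial list. Without these cells the log2 ratio of the 3 genes summed was 0.70 in MOL5/6 and 0.65 in OPCs, ectopic vOLCs against control dOLCs.

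A few of these cells carried transcripts of Ifi27l2a and Bst2, which interferons induce, and both were picked out after their values were seen. An ectopic cell of MOL5/6d held 35 UMIs of Ifi27l2a and 6 of Bst2 with 17 of B2m, and another held 30 and 14 with 8 of B2m. Cells with 3 or more UMIs of Ifi27l2a numbered 4, 1 and 7 in control dOLCs, control vOLCs and ectopic vOLCs, and 6 of the 7 ectopic ones were annotated MOL5/6d. The 7 held 139 of the 182 Ifi27l2a UMIs of the ectopic library. In them B2m stood at 1197 CPM (52 UMIs) against 48.6 CPM in the other ectopic MOL5/6 cells. H2-D1 stood at 368 CPM (16 UMIs) against 54.4 CPM, and H2-K1 at 46.0 CPM (2 UMIs) against 49.5 CPM. The B2m and H2-D1 levels were largely set by the choice of Ifi27l2a, which was seen in cells already picked for high class I. Such cells held 17, 8 and 13 of the 52 B2m UMIs and 5, 7 and 1 of the 16 H2-D1 UMIs. A link between Ifi27l2a and class I was therefore not tested. In the 4 control dOLC cells B2m stood at 802 CPM (16 UMIs), H2-D1 at 150 CPM (3 UMIs) and H2-K1 at 100.2 CPM (2 UMIs). Of these 16 B2m UMIs 9 lay in 1 cell that was also picked for high class I. The 1 control vOLC cell, with 9 UMIs of Ifi27l2a, held no UMI of B2m, H2-K1 or H2-D1. The 7 ectopic cells also held 6 of the UMIs of Psmb8, as many as the other 1835 ectopic MOL5/6 cells together. Those 6 lay as 2 and 4 in cells that were also picked for high class I.

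Cd74, the class II invariant chain, was not a feature of these cells as a class. Its 29 UMIs over all kept cells came to 27 for control dOLCs, 0 for control vOLCs and 2 for ectopic vOLCs, and 23 of them lay in 1 control dOLC cell that was annotated MOL5/6c. That cell held 9 UMIs of the lymphocyte and dendritic list, among them all 5 of Cd79a and both of Ms4a1 that were counted in kept cells, which are B cell genes. It also held 7 of the 8 UMIs of H2-Aa, 9 of the 29 of H2-Ab1 and 5 of the 17 of H2-Eb1, the chains of class II, along with 103 UMIs of the mature oligodendrocyte list, so it carried transcripts of both kinds. Of B2m it had 1 UMI and of H2-K1 and H2-D1 none. The log2 ratio of Cd74 in MOL5/6, ectopic vOLCs against control dOLCs, was -4.15 with this cell and -0.51 without it. Of 16 class II genes and transactivators none passed the filter in MOL5/6 and 1 did in OPCs, H2-DMa, which helps load class II, at 28.6 CPM in control dOLCs, 32.9 CPM in control vOLCs and 36.6 CPM in ectopic vOLCs.

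C4b, the complement gene, had a lower level in MOL5/6 of ectopic vOLCs than in those of control dOLCs. In MOL5/6 it stood at 11.5 CPM in control dOLCs (171 UMIs), 13.7 CPM in control vOLCs (40 UMIs) and 5.67 CPM in ectopic vOLCs (60 UMIs), and the interval of ectopic vOLCs lay below both others. In control vOLCs 18 of the 40 UMIs lay in 2 cells, and without cells with 5 or more UMIs of C4b, a limit set after the values were seen, the levels were 10.4, 7.56 and 5.20 CPM and the intervals of control vOLCs (4.74 to 11.4 CPM) and ectopic vOLCs (3.92 to 6.77 CPM) overlapped. The log2 ratio for ectopic vOLCs was -1.02 (interval -1.47 to -0.59) against control dOLCs and -1.27 (interval -1.87 to -0.66) against control vOLCs, and that of control vOLCs to control dOLCs was 0.25 (interval -0.29 to 0.75). Without those cells the 3 ratios were -0.996 (interval -1.47 to -0.54), -0.54 (interval -1.28 to 0.25) and -0.46 (interval -1.17 to 0.19), so the lower level held against control dOLCs and was not resolved against control vOLCs. Too few cells held a UMI of C4b for it to pass the filter. In OPCs C4b had 19, 4 and 1 UMIs, and in MOL2a it stood at 9.91, 16.2 and 0 CPM, where a count of 0 in the ectopic library allows up to 4.36 CPM. Of the 19 UMIs of control vOLCs in MOL2a 13 lay in 1 cell, without which the level was 5.14 CPM. Within MOL5/6a the log2 ratio for ectopic vOLCs over control dOLCs was -1.38 (interval -2.39 to -0.36), or -0.88 without those cells (interval -2.16 to 0.50), and within MOL5/6d it was -0.43 (interval -1.18 to 0.34). Its highest well-filled cluster in control dOLCs was MOL1, at 28.9 CPM (25 UMIs in 242 cells), of which 15 UMIs lay in 2 cells.

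Serpina3n, the protease inhibitor, was highest in control vOLCs in both classes. In OPCs it stood at 40.4 CPM in control dOLCs (106 UMIs), 70.9 CPM in control vOLCs (28 UMIs) and 27.4 CPM in ectopic vOLCs (33 UMIs). The log2 ratio for ectopic vOLCs was -1.37 (interval -2.14 to -0.59) against control vOLCs and -0.56 (interval -1.17 to 0.02) against control dOLCs, and that of control vOLCs to control dOLCs was 0.81 (interval 0.16 to 1.43). Over the alternatives the ratio of ectopic vOLCs to control dOLCs ran from -0.57 to 0.09, so its direction was not settled. In MOL5/6 Serpina3n stood at 3.37, 7.53 and 4.16 CPM (50, 22 and 44 UMIs), and 7 of the 22 lay in 1 cell. Without the cells high in C4b, of which that is 1, the log2 ratio of control vOLCs to control dOLCs went from 1.16 to 0.51 there. OPCs exceeded MOL5/6 by 12.0-, 9.41- and 6.60-fold. No UMI of Serpina3n was counted in COP/NFOL/MFOLa of any library, which held 76, 13 and 22 cells and where a count of 0 allows up to 6.02, 34.4 and 20.1 CPM. In MOL2a it stood at 4.96, 12.8 and 18.9 CPM, there highest in ectopic vOLCs.

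The cells with 5 or more UMIs of C4b numbered 8, of which 4 were control dOLCs, 3 control vOLCs and 1 an ectopic vOLC. The 2 highest, control vOLCs of MOL2a and MOL5/6b, held 13 and 11 UMIs of C4b together with 5 and 7 of Serpina3n, and 2 and 0 class I UMIs. The cell of MOL5/6a named above, with 24 class I UMIs, was the only one of the 8 with more than 8. Of 13 other complement genes, Cd59a, an inhibitor of the lytic complex, alone passed the filter in MOL5/6 (log2 ratio for ectopic vOLCs over control dOLCs 0.25, interval 0.03 to 0.48), and none did in OPCs. Of 6 relatives of Serpina3n with a row, Serpina3g had 1 UMI in MOL5/6 of control dOLCs and the others none in either class of these 2 libraries.

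Other genes that have been tied to reactive oligodendrocytes had no common direction. Of 22 in a fixed list, 9 passed in each class. In MOL5/6 2 were past 1.5-fold higher in ectopic vOLCs against control dOLCs (median log2 ratio 0.20), and in OPCs 2 were past 1.5-fold lower, with a median of -0.14. Of all genes 1.13% were higher and 11.5% lower in MOL5/6, and 5.34% were higher and 5.79% lower in OPCs. Il33, an alarmin cytokine of oligodendrocytes, was 711 CPM in control dOLCs, 641 CPM in control vOLCs and 1136 CPM in ectopic vOLCs in MOL5/6 (log2 ratio 0.68, interval 0.64 to 0.71), and in OPCs it had a log2 ratio of -0.89. Sgk1, a stress-responsive kinase, was 239, 242 and 364 CPM in MOL5/6 (log2 ratio 0.61, interval 0.55 to 0.68). Klk6, a secreted protease, was 21.0, 56.2 and 25.2 CPM there. Trf, the iron carrier transferrin, had a log2 ratio of -1.51 in OPCs. In OPCs all 5 mature oligodendrocyte markers were also past 1.5-fold lower in ectopic vOLCs against control dOLCs, with a median of -1.02. The same 5 were past it in control vOLCs against control dOLCs, with a median of -1.10. Il33 and Trf were past 1.5-fold lower in that comparison too, where 10.8% of all genes were higher and 12.1% lower. Against control vOLCs, Trf was again past 1.5-fold lower in ectopic vOLCs, where 9.77% of all genes were lower. The shares of mature markers in OPCs given above also differed between the libraries, and their part in the OPC ratios was not tested.

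Microglia, endothelial cells and other cell types of the cortex can make class I, C4b or Serpina3n, so their markers are given for the same sums. The 15 genes of the microglia and macrophage list summed to 34.2, 36.6 and 33.1 CPM in MOL5/6 and 80.4, 117 and 79.0 CPM in OPCs of control dOLCs, control vOLCs and ectopic vOLCs. Of the defining genes Tmem119 was at 0 in all kept cells, Cx3cr1 had 1, 0 and 1 UMIs and P2ry12 had 2, 2 and 2. In MOL5/6 3, 10 and 3 of the 15 were at 0, and in OPCs 9, 11 and 14. The endothelial list summed to 5.66, 8.90 and 3.69 CPM in MOL5/6 and 4.19, 22.8 and 3.33 CPM in OPCs. The lymphocyte and dendritic list had 9, 0 and 1 UMIs in MOL5/6, and the mural and fibroblast list 8, 1 and 1. The 6 astrocyte markers, some of which OPCs also make, summed to 266, 240 and 225 CPM in MOL5/6 and 1004, 1084 and 1028 CPM in OPCs, and the 4 neuron markers to 18.3, 7.88 and 10.4 CPM and to 1090, 1262 and 1183 CPM. In MOL5/6 none of these sums had the library order of H2-K1 and H2-D1, and the part of other cell types in the heavy chain levels was not tested. Like C4b in MOL5/6, also without its high cells, the microglia, endothelial and astrocyte sums were lowest in ectopic vOLCs there, with a log2 ratio of the astrocyte sum of -0.24 against control dOLCs (interval -0.32 to -0.17), and their part in the C4b result was not tested.

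Genes with a pattern like each well-detected member were sought over the 27 sums of a library and cluster with 20 or more cells, among 9539 genes. These sums share libraries, depth and cells, and the rank correlations are a description. The genes most like B2m were Fam98c (Spearman's rho 0.74), Slc35c2 (0.74) and Uap1l1 (0.72). Those most like H2-K1 were Tmem59l (0.82), Cpq (0.82) and Gm2a (0.76), and those most like H2-D1 were Tmem59l (0.79), Cyp2j6 (0.74) and Mpdu1 (0.74). For C4b they were Samhd1 (0.74), Plekhm3 (0.73) and Map4k5 (0.69), and for Serpina3n they were Slc4a10 (0.73), Mitd1 (0.70) and Rab8b (0.68). Among the members themselves rho was 0.60 for B2m with H2-K1, 0.66 for B2m with H2-D1 and 0.69 for H2-K1 with H2-D1. C4b had values from -0.27 to -0.12 with the class I genes and -0.18 with Serpina3n.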

How the data were processed

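The authors sorted OLCs by reporter with FACS, captured them with 10x 3′ v2 chemistry, and made counts with Cell Ranger (2.1.1 in the submitters' processing notes) on mm10, followed by Seurat (3 and 4.0 in those notes). They deposited a table of raw UMI counts (no normalization) and an annotation of the kept cells with their library, cluster and the percent of mitochondrial counts, which the authors computed per cell and used as a limit of 15%. Their annotation of cell types was used. The 4 P0 samples of nuclei were not analysed here. Some genes of the marker lists are not reported here by name. The members and the gene lists were chosen with earlier results of these data known.

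UMIs were summed per library and cell type and scaled to CPM. Differences are log2 ratios of CPM with 95% conditional exact binomial intervals, and levels have exact Poisson intervals. Since 1 library stood for each condition, p-values were not computed. Called means past 1.5-fold (0.58 on the log2 scale) among genes that had 50 or more UMIs over both libraries of a comparison and were seen in 10% or more of the cells of either. Between OPCs and MOL5/6, a gene needed 10 or more UMIs over both classes in each library and 50 or more over all 3. A ratio against a count of 0 is a bound from 3 counts. All members are described. Of each list, the 3 genes of highest level in control dOLCs and up to 3 with the largest ratio whose interval left out 0 could be named. Doublets were not removed. The alternatives were edgeR's TMM and DESeq2's median of ratios scaling, each cell thinned to 1000 UMIs, a mean over cells, values within subclusters, a mitochondrial limit of 10%, and leaving out cells with microglia markers, those with 5 or more C4b UMIs, or the 6% with the highest doublet score (Scrublet in scanpy 1.11.5). Motifs were searched in RefSeq promoters (GRCm38.p6). The ratio and its interval were tested on simulated data. Python 3.11.15, SciPy 1.17.1, pandas 2.3.3, R 4.3.3, edgeR 4.0.16 and DESeq2 1.42.0 were used.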

Additional observations from a re-analysis of the deposited data

Results flagged for a closer look

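B2m moved in opposite directions in 2 pairs of clusters when ectopic vOLCs were compared with control dOLCs. Its log2 ratio was 0.55 in OPCs and -0.71 in MOL2b, 1.26 apart, and it was 0.55 in OPCs and -0.46 in MOL5/6a, 1.01 apart. Each ratio rests on 1 library per condition. In control dOLCs 1 cell held 17 of the 82 B2m UMIs of MOL2b, and cells with 13 and 6 UMIs were among the 95 of MOL5/6a. The difference between clusters was not tested.

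The barcodes that the authors' quality limits removed belong to no comparison above. In the 388 removed from control dOLCs, Psmb8 stood at 2.72 CPM (10 UMIs) against 0.997 CPM in kept cells (23 UMIs), a log2 ratio of 1.45 (interval 0.21 to 2.57). In the 288 removed from ectopic vOLCs, Tap1 stood at 2.40 CPM (8 UMIs) against 0.6996 CPM (10 UMIs), a log2 ratio of 1.78 (interval 0.23 to 3.27). In the 114 removed from control vOLCs, the microglia and macrophage markers stood at 131 CPM (119 UMIs) against 45.6 CPM, a log2 ratio of 1.53 (interval 1.19 to 1.85). With 1 library per condition, no group was large enough to look for a sample far from the others.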

How the results depend on the processing

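The sum of B2m, H2-K1 and H2-D1 in MOL5/6, ectopic vOLCs against control dOLCs, had a log2 ratio of 0.70, and moved to 0.87 with TMM scaling, 0.88 with median of ratios size factors, 0.84 with cells thinned to 1000 UMIs and 0.38 as the mean within subclusters. That within-subcluster mean took control vOLCs against control dOLCs from 0.50 to 0.20. For single genes it turned B2m, ectopic vOLCs against control dOLCs, from 0.32 to -0.086, and H2-D1, control vOLCs against control dOLCs, from 0.41 to -0.024, and thinning took that of H2-D1 to 0.88. In OPCs the sum of the 3 stayed between 0.63 and 0.75 against control dOLCs. C4b and Serpina3n summed in MOL5/6 moved from -1.11, ectopic vOLCs against control vOLCs, to -0.56 with thinning, -0.54 with a mitochondrial limit of 10% and -0.40 without cells with 5 or more C4b UMIs. For control vOLCs against control dOLCs they went from 0.51 to -0.033 with thinning, 0.0033 with that limit and -0.15 without those cells. The causes were not tested. Of the alternatives for the summed genes 88 stayed within the counting interval, 9 moved and 2 turned, and for single genes whose interval left out 0, 233 did and 12 moved without turning. H2-K1 in MOL5/6, ectopic vOLCs against control dOLCs, ranged from 0.81 to 1.12 and H2-D1 from 0.61 to 1.14. Against control vOLCs H2-K1 ranged from 0.35 to 0.77 and H2-D1 from 0.16 to 0.75. Without a filter beyond 1 UMI, the genes past 1.5-fold in the 3 MOL5/6 comparisons went from 12.6%, 13.9% and 3.29% to 38.5%, 42.4% and 35.7%. Leaving out cells by class I, by Ifi27l2a, by C4b or by Cd74 was chosen after seeing the data. No paired analysis was possible because 1 library stood for each condition and the labels give no replicate numbers that pair them. Depth limits Tap1, Psmb8, Psmb9 and Cd74, which had under 60 UMIs in any library.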
